A study of Mus musculus with 10 samples.

Results

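Interferon reception and JAK signaling were followed through 10 genes in mouse tumors sampled before an intraoperative immunotherapy: the ligand Ifng, the receptor genes Ifngr1, Ifngr2, Ifnar1 and Ifnar2, the kinase genes Jak1, Jak2 and Tyk2, and the feedback inhibitor genes Socs1 and Socs3. They were taken by symbol from a table of estimated RNA counts, where they make up 10 of 35958 features. Each of the 10 matched a single entry, none was at 0 in any tumor, and all 10 were among the 15767 features that passed the filter on low values.

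The tumors were grown subcutaneously from WEHI-164, a mouse fibrosarcoma line, in wild-type female BALB/c mice. A piece of each tumor was removed at surgery and kept in RNAlater, a hydrogel loaded with poly(I:C), a synthetic double-stranded RNA that stimulates innate immunity, was then placed on what was left, and the mouse was followed for response. The sequenced tissue of both groups was therefore untreated, and the group names describe what happened later: 5 responders (RS; tumors 5, 9, 10, 11 and 12) regressed completely and 5 non-responders (NR; tumors 1, 2, 3, 6 and 7) showed no delay in growth. Tumors of 1 transplanted line in 1 inbred strain limit both groups as a model, and the libraries hold RNA of the tumor cells together with that of every host cell in the piece. Total estimated counts per tumor ran from 16002949 (RS 9) to 31160790 (RS 11) in responders and from 19863863 (NR 3) to 28276142 (NR 2) in non-responders. The 8 markers of fibroblasts and fibrosarcoma, the labelled cell type, summed to between 10340 and 12300 CPM (counts scaled to a library of 1000000 counts, with TMM factors for composition) in each tumor, led by Vim at a mean of 4764 CPM.

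Interferon gamma, made chiefly by NK cells and T cells, binds a receptor of IFNGR1 and IFNGR2 chains, which carry the kinases JAK1 and JAK2. Type I interferons bind IFNAR1 and IFNAR2, which carry TYK2 and JAK1. Both routes phosphorylate STAT transcription factors, which bind GAS elements or, as a complex with IRF9, ISRE elements, and SOCS1 and SOCS3 are induced inhibitors that dampen JAK signaling.

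Levels between genes were compared as CPM per kilobase (kb) of annotated exon, averaged over the 10 tumors. On this scale Socs3 had the highest level at 41.6, followed by Jak1 at 30.8, Ifngr1 at 27.5, Jak2 at 22.0, Ifngr2 at 18.8, Ifnar2 at 16.02, Ifnar1 at 14.8, Socs1 at 14.0, Tyk2 at 7.31 and Ifng at 1.53. The ranges of neighbors overlapped along much of this order, although tumors were mostly ordered alike: Jak2 exceeded Ifngr2 in 9 of 10 tumors, Ifnar2 exceeded Ifnar1 in 9 of 10 and Ifnar1 exceeded Socs1 in 8 of 10. For the other 6 pairs of neighbors the order was the same in all 10 tumors. Tyk2 and Ifng stood apart from the rest, with Tyk2 between 6.86 and 8.11 and Ifng between 0.552 and 3.04 CPM per kb. The ligand was thus the least abundant of the 10 transcripts per exon length, and the receptor and kinase transcripts were present in every tumor of both groups.

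**Figure D1:**
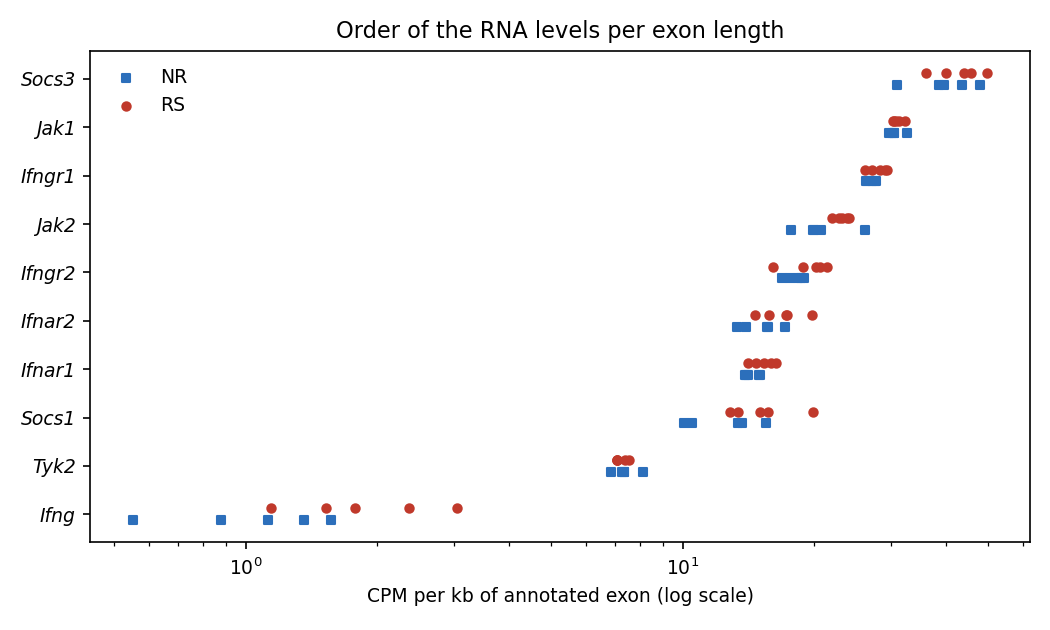
RNA level of each of the 10 genes in CPM per kb of annotated exon (horizontal log axis), with 1 point per tumor (circles RS, squares NR), ordered by the mean over the 10 tumors. Socs3 leads with a mean of 41.6 and Ifng is lowest with a mean of 1.53, and within each gene the points of the groups overlap.

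Responders were compared with non-responders to ask whether these transcripts already differed before treatment. Of 15767 features tested, 0 (0%) passed an adjusted p of 0.05 (edgeR quasi-likelihood test, Benjamini-Hochberg), and so 0 of the 10 genes did. DESeq2 called 1 feature, which was none of the 10, limma-voom called 0, and edgeR called 9 without RS 5, none of them among the 10 genes. At an unadjusted p of 0.05, 1294 features (8.21%) passed, 663 of them higher in responders (4.2%) and 631 lower (4%), and 1 of the 10 genes, Ifng, was among those that were higher. That count was 0 without RS 11, where 839 of 15706 features passed before adjustment. It was 5 without RS 5 (Ifng, Ifngr2, Ifnar1, Ifnar2 and Socs1), where 2139 of 15695 features did. The mean level was higher in responders for 9 of the 10 genes, against 48.6% of all features, and the median log2 fold change was 0.10, against -0.0036 over all features. That median was 0.16 without RS 5 and 0.02 with Ptprc, the gene of the pan-leukocyte antigen CD45, as a covariate. None of the 10 genes had groups that did not overlap, which was the case for 146 of all features tested (0.926%). In bulk RNA such as this, fewer cells of a type and less RNA per cell cannot be told apart.

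**Figure D2:**
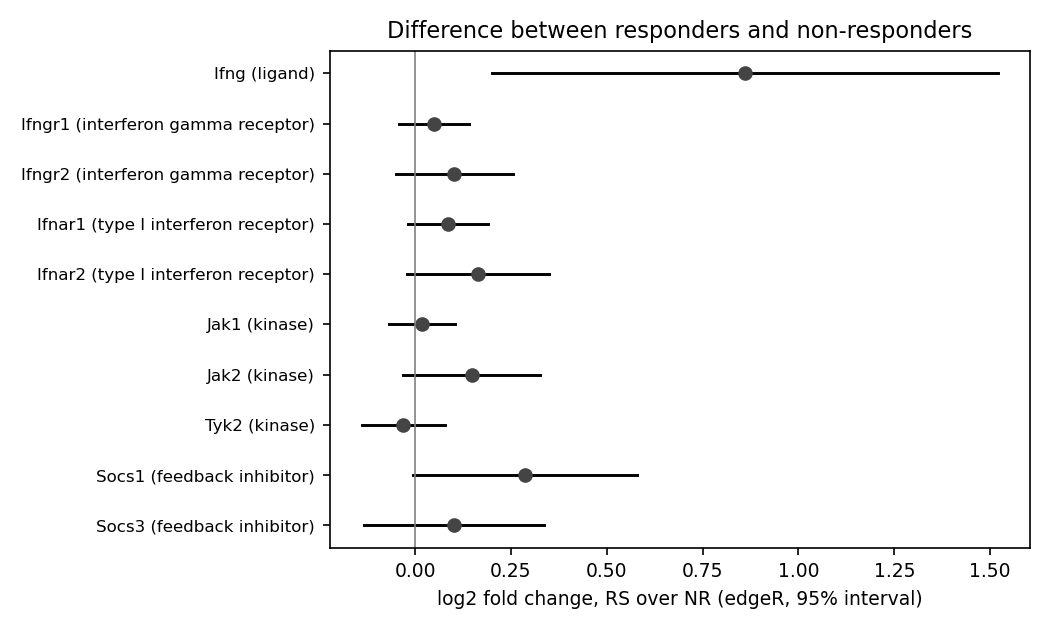
Log2 fold change of responders over non-responders for each of the 10 genes (points) with its 95% confidence interval (lines) from the edgeR fit of 5 RS and 5 NR tumors. The interval of Ifng (0.20 to 1.52) lies above 0 without adjustment for the number of features, and the intervals of the other 9 genes include 0.

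Ifng encodes the ligand and lies on the plus strand of chromosome 10 (chr10:118441046-118445892, GRCm38). Its level in RS 5, 9, 10, 11 and 12 was 1.48, 3.06, 1.97, 3.94 and 2.30 CPM. In NR 1, 2, 3, 6 and 7 it was 1.76, 0.715, 1.46, 2.03 and 1.13 CPM. RS 11, RS 9 and RS 12 lay above every non-responder and NR 2, NR 7 and NR 3 lay below every responder, while RS 5 and RS 10 lay among the non-responders. The responders averaged 2.55 ± 0.966 CPM and the non-responders 1.42 ± 0.517 CPM (SD, n = 5 per group). This was a log2 fold change of 0.86 with a standard error (SE) of 0.30 (1.82-fold, 95% confidence interval 1.15 to 2.87), below the threshold before adjustment but not after it (edgeR adjusted p = 0.58). These values rest on 20 to 121 estimated counts per tumor, which alone would give a coefficient of variation of 14.6%, compared with 47.5% observed over the 10 tumors. That unadjusted result depended on a single tumor: without RS 11 the log2 fold change was 0.63 and no longer below the threshold before adjustment (edgeR adjusted p = 0.879). An annotated transcript of unknown coding status, Gm49751, overlaps Ifng on the same strand, so reads could have been divided between them.

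Markers of the cells that make interferon gamma were also measured. Of 10 NK cell markers, 7 passed the filter on low values and Klra8 was at 0 in every tumor. The NK score, the mean log2(CPM + 1) of those 7, was 1.93, 3.12, 3.18, 3.60 and 2.997 in RS 5, 9, 10, 11 and 12 and 2.62, 1.68, 2.22, 2.62 and 2.07 in NR 1, 2, 3, 6 and 7. RS 5 stood among the non-responders, and the other 4 responders lay above all 5 of them. The scores averaged 2.97 ± 0.620 and 2.24 ± 0.396 (SD, n = 5 each) and differed by 0.73 (exact two-sided permutation p = 0.0635, 0.228 after adjustment over 12 marker lists, where 0.00794 is the smallest possible before adjustment). All 7 were higher in responders at an unadjusted p of 0.05 (4.2% of all features) and 0 passed after adjustment, with a median log2 fold change of 0.89. The most abundant of them, Gzma, a granule protease of cytotoxic lymphocytes, had a mean of 36.1 CPM over all tumors, and the summed level of the 10 markers ran from 25.6 (RS 5) to 162.5 CPM (RS 11) in responders and from 18.9 (NR 2) to 56.9 CPM (NR 6) in non-responders. The score of 9 T cell markers differed by 0.24 (exact permutation p = 0.325, adjusted 0.409), and by 0.40 without RS 5, 0.14 without RS 11 and 0.15 without NR 2. Its most abundant gene was Trbc2 at 16.1 CPM, none of the 9 was at 0 in every tumor, and their summed level ran from 37.4 to 76.0 CPM in responders and from 38.2 to 63.4 CPM in non-responders. Of these 9, 1 was higher at the unadjusted threshold and 0 lower, with a median log2 fold change of 0.33. The part of these cells in the Ifng values was not tested. With Ptprc as a covariate, the log2 fold change of Ifng was 0.39 and not below the threshold before adjustment (edgeR adjusted p = 1). Ptprc marks leukocytes in general, so that fit cannot separate NK cells and T cells from the others. In it 463 of all features passed before adjustment, against 1294 without the covariate.

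**Figure D3:**
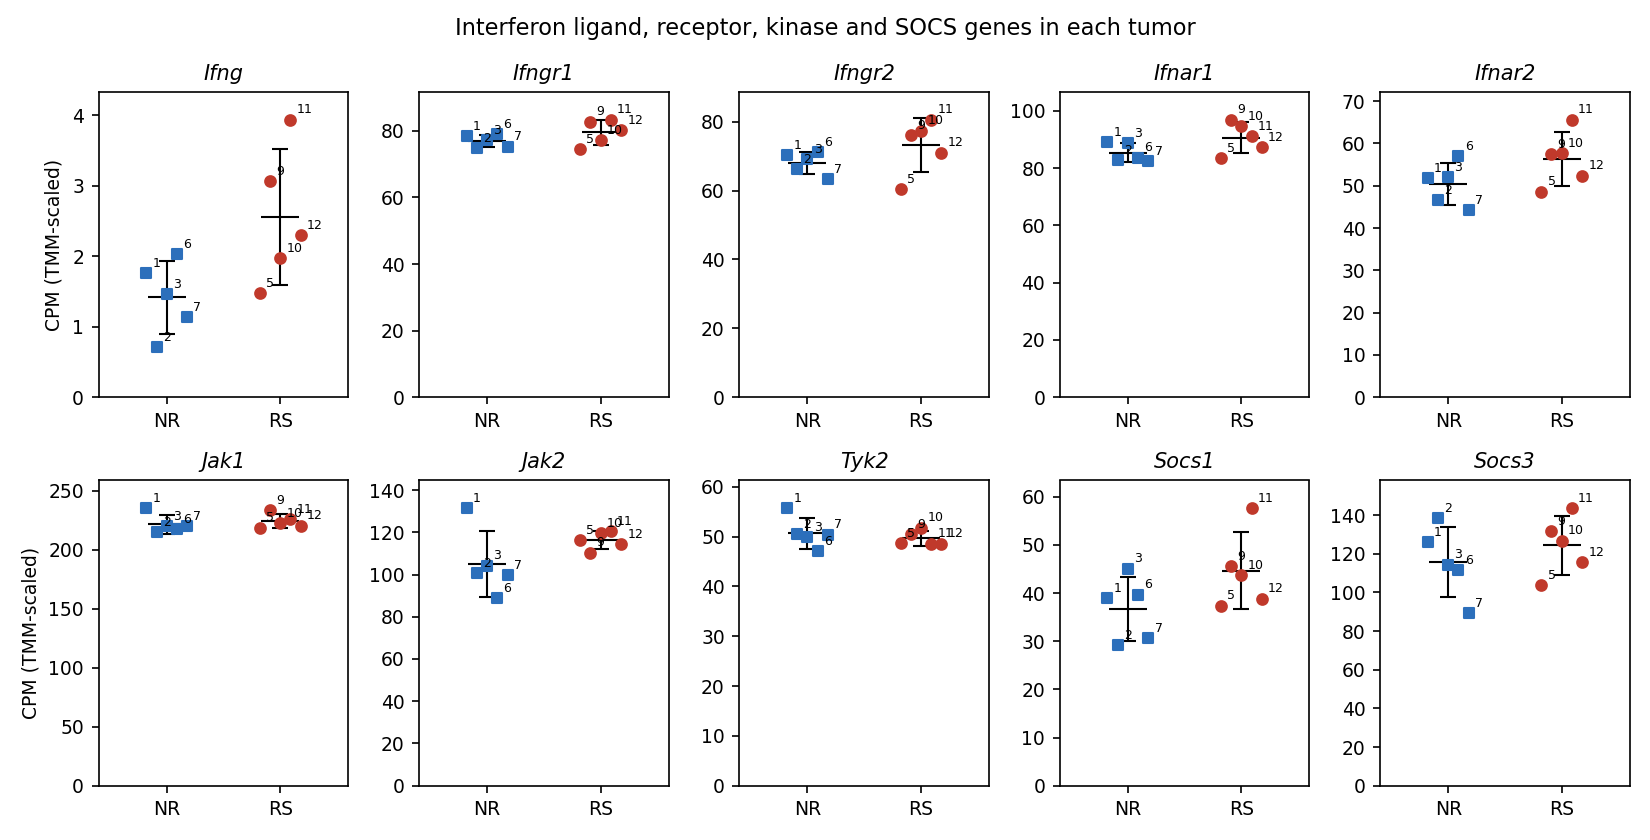
TMM-scaled CPM (vertical axes, each starting at 0) of the 10 genes in the 5 NR (squares) and 5 RS (circles) tumors, labelled with tumor numbers; horizontal lines and bars give the mean ± SD. Ifng spans 0.715 to 3.94 CPM, Jak1 stays between 214.7 and 235.0 CPM, and the groups overlap for each of the 10 genes.

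Ifngr1 encodes the ligand-binding chain of the interferon gamma receptor (chr10:19591949-19610229, plus strand). Its level was 74.5, 82.7, 77.2, 83.3 and 80.3 CPM in the responders and 78.4, 74.7, 77.3, 78.9 and 75.3 CPM in the non-responders, in the order of tumors used above. RS 9, RS 11 and RS 12 lay above every non-responder, but RS 5 was the lowest of all 10. Ifngr1 varied little, with a coefficient of variation of 4.01% over the 10 tumors, and its log2 fold change was 0.05 with an interval of -0.04 to 0.14 (adjusted p = 0.779). Ifngr2, the signal-transducing chain (chr16:91547072-91565623, plus strand), was at 60.5, 76.2, 77.4, 80.6 and 71.0 CPM in the responders and at 70.4, 66.4, 69.1, 71.3 and 63.4 CPM in the non-responders. Here RS 9, RS 10 and RS 11 lay above every non-responder and RS 5 again below every other tumor. The log2 fold change of Ifngr2 was 0.10, with an interval of -0.05 to 0.25 (adjusted p = 0.715). The upper bounds of these intervals were 1.103-fold for Ifngr1 and 1.19-fold for Ifngr2.

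The type I interferon receptor genes lie in the same stretch of chromosome 16 as Ifngr2. Ifnar1 (chr16:91485238-91507441, plus strand) was measured at 83.6, 96.9, 94.7, 91.2 and 87.3 CPM in the responders and at 89.2, 82.8, 88.9, 83.7 and 82.5 CPM in the non-responders. RS 9, RS 10 and RS 11 exceeded every non-responder, and NR 2 and NR 7 lay below every responder. Its log2 fold change was 0.09 ± 0.05 (SE), with an adjusted p of 0.666. Ifnar2 (chr16:91372783-91405589, plus strand) was measured at 48.6, 57.4, 57.7, 65.6 and 52.4 CPM in the responders and at 51.8, 46.6, 52.1, 57.0 and 44.3 CPM in the non-responders. The same 3 responders were above every non-responder, RS 10 and RS 9 by less than 1 CPM. Its log2 fold change was 0.16 ± 0.09 (SE; 1.12-fold, adjusted p = 0.639), the largest of the 4 receptor genes, and the annotated protein-coding gene Gm21970 overlaps it on the same strand, so its reads could have been divided.

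For the ligands of these receptors there was little to measure. Of 19 genes of type I and type III interferons, 12 were at 0 in all 10 tumors and none of the other 7 had more than 4 estimated counts in any tumor, so 0 passed the filter on low values. A difference in these ligands was not detectable at this depth. Il10rb, the shared chain of the interferon lambda receptor, had a log2 fold change of 0.05 (edgeR adjusted p = 0.915), and Ifnlr1, its specific chain, was below the filter, at 10 counts or fewer in each tumor.

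Jak1, the kinase that serves both receptors (chr4:101152367-101265282, minus strand), varied least of the 10 genes, with a coefficient of variation of 3.04%. Its level was 218.6, 233.5, 222.6, 225.9 and 220.3 CPM in the responders and 235.0, 214.7, 219.6, 217.1 and 220.0 CPM in the non-responders. NR 1 was the highest tumor and NR 2 the lowest, so the responders sat inside the range of the non-responders. The log2 fold change was 0.02 with an interval of -0.07 to 0.10 (adjusted p = 0.927), that is, an upper bound of 1.075-fold. A processed pseudogene, Gm12785, overlaps Jak1 on the same strand, and Raver2 overlaps it on the opposite strand.

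Jak2, the kinase on the IFNGR2 chain (chr19:29251828-29313080, plus strand), showed a different arrangement of the tumors. It was at 116.4, 110.3, 119.6, 120.6 and 114.3 CPM in the responders and at 131.4, 100.7, 104.2, 88.8 and 99.9 CPM in the non-responders. NR 2, NR 3, NR 6 and NR 7 all lay below every responder, whereas NR 1 was above every responder. The SD was 4.15 CPM among the responders against 15.8 CPM among the non-responders (n = 5 per group). With all 10 tumors the log2 fold change was 0.15 ± 0.08 (SE; edgeR adjusted p = 0.666). Without NR 1 it was 0.24 and passed the threshold before adjustment, with an adjusted p of 0.297, so Jak2 did not pass after adjustment in either fit. NR 1 also had the highest Jak1 and Tyk2 levels of the 10 tumors.

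Tyk2, the kinase on the IFNAR1 chain (chr9:21104068-21131243, minus strand), was at 48.6, 50.5, 51.8, 48.6 and 48.6 CPM in the responders and at 55.7, 50.4, 49.9, 47.1 and 50.4 CPM in the non-responders. The responders sat inside the range of the non-responders. It was the 1 gene of the 10 with a lower mean in responders, by a log2 fold change of -0.03 (interval -0.14 to 0.08, adjusted p = 0.899), and without NR 1 this value was 0.0046. An antisense transcript, 1700084C06Rik, is annotated over it, and whether the counting used strand is not given in the sources used here.

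Jak3, the remaining member of the kinase family, which serves cytokine receptors with the common gamma chain, averaged 78.1 ± 7.20 CPM among the responders and 64.3 ± 6.83 CPM among the non-responders (SD, n = 5 per group). Its log2 fold change was 0.28 ± 0.08 (SE), past the threshold before adjustment (edgeR adjusted p = 0.58), with 4 of 5 responders above every non-responder. Insl3 overlaps Jak3 on the same strand.

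The promoters of the 10 genes were searched on both strands for GAS, spelled TTCNNNGAA, and ISRE, spelled GAAA, any 2 bases and GAAA again, from 250 bases before to 50 bases after the RefSeq transcription start (GRCm38.p6). All 10 genes matched an entry. GAS letters were found in the windows of Ifng, Ifnar1, Ifnar2 and Socs3, 4 of the 10, compared with 8.3% of 32851 windows of the same length, and ISRE letters in that of Socs1, 1 of the 10, compared with 3.44%. A match is a description of the letters and not evidence of a bound site. The 250 bases before the start of Socs1, the inhibitor with the larger difference between the groups, and of the ligand Ifng are shown with the matches in capitals. In Socs1 (chr16:10785537-10785786, minus strand) GAAAGAGAAA and GAAACCGAAA, at positions -83 to -74 and -77 to -68 from the start, overlap and form a single run. In Ifng (chr10:118440796-118441045, plus strand) the match TTCAGAGAA lies at the far end of the window, at -249 to -241.
Socs1: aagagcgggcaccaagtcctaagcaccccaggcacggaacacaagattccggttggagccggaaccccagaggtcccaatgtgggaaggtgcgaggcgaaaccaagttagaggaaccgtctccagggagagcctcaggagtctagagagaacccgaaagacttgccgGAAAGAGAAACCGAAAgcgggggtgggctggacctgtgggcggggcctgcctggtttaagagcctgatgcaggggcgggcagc
Ifng: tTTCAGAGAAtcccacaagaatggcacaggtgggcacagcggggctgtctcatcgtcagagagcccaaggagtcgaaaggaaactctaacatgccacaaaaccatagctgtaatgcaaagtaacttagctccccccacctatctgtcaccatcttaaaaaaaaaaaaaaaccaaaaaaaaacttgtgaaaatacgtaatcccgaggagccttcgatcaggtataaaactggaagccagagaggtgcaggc

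Socs1, which inhibits JAK1, JAK2 and TYK2 directly (chr16:10782240-10785536, minus strand), had the second largest difference of the 10 genes. Its level was 37.4, 45.7, 43.8, 57.6 and 38.9 CPM in the responders and 38.9, 29.2, 45.0, 39.7 and 30.6 CPM in the non-responders. RS 11 and RS 9 lay above every non-responder, RS 9 by less than 1 CPM, and NR 2 and NR 7 lay below every responder. The responders averaged 44.6 ± 8.004 CPM and the non-responders 36.7 ± 6.65 CPM (SD, n = 5 per group), a log2 fold change of 0.29 ± 0.13 (SE; 1.22-fold, 95% confidence interval 0.997 to 1.495, edgeR adjusted p = 0.611). Without RS 11 the log2 fold change was 0.18, and with Ptprc as a covariate it was 0.06. NR 2, NR 7 and RS 11 thus held the extremes of both Ifng and Socs1.

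Socs3, which acts mainly on receptors that signal through gp130 (chr11:117966079-117970047, minus strand), was at 103.8, 131.8, 126.9, 143.6 and 115.8 CPM in the responders and at 125.9, 138.3, 114.4, 111.4 and 89.5 CPM in the non-responders. RS 11 was the highest tumor, NR 2 the next and NR 7 the lowest, so the groups overlapped along most of the range. The log2 fold change was 0.10, with an interval of -0.13 to 0.34 (adjusted p = 0.833). Its position among the tumors differed from that of Socs1 in NR 2, which had the lowest Socs1 and the second highest Socs3 level.

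Socs1 and Socs3 belong to a family of 8 inhibitors, and the other 6 all passed the filter. Of these, 2 were higher in responders at an unadjusted p of 0.05 (663 of all features, 4.2%) and 0 were lower, and their median log2 fold change was 0.03. Cish, a STAT5-induced inhibitor, had a log2 fold change of 0.58 ± 0.24 (SE), Socs2, an inhibitor of growth hormone signaling, 0.38 ± 0.16 (SE) and Socs6 -0.09 ± 0.05 (SE), with edgeR adjusted p of 0.591, 0.591 and 0.671. Of 11 other negative regulators, such as the PIAS proteins and phosphatases, 0 passed in either direction, with a median of -0.01, and those nearest to the threshold were Pias3 (log2 fold change -0.15), Ptprc (0.19) and Ptpn6 (0.12). Ptprc was also counted among the general leukocyte markers and was the covariate named above. Of 9 ligands and receptors of the gp130 family, 1 passed and was higher, with a median of 0.07: Osm, encoding oncostatin M, at 0.45 ± 0.21 (SE). Osmr, its receptor, had a log2 fold change of 0.26 and Il11 one of 0.34.

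Downstream of the kinases, 8 genes of STAT proteins and IRF9 were tested, 7 with a higher mean in responders (48.6% of all features) and a median log2 fold change of 0.16. At the unadjusted threshold 2 of the 8 were higher (4.2% of all features) and 0 lower. Stat4, which carries interleukin-12 signals and drives Ifng transcription, was at 4.36 ± 1.04 CPM in the responders against 2.85 ± 0.728 CPM (SD, n = 5 per group), a log2 fold change of 0.61 ± 0.22 (SE; edgeR adjusted p = 0.58). Irf9 had a log2 fold change of 0.18 and is overlapped by Rnf31 on the same strand, and Gm28177 overlaps Stat4.

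Upstream of Ifng, 13 of 15 genes of its inducers and their receptors were tested. Of these, 12 had a higher mean in responders (48.6% of all features), 8 were higher at the unadjusted threshold (4.2% of all features) and 0 lower, and the median log2 fold change was 0.36. The genes with the smallest p were Il18rap, an interleukin-18 receptor chain (244.5 ± 18.2 against 208.8 ± 17.5 CPM; log2 fold change 0.23), Eomes, a transcription factor of NK and cytotoxic T cells (3.65 ± 1.34 against 1.86 ± 0.583 CPM; 0.98) and Il2ra, the interleukin-2 receptor alpha chain (15.7 ± 5.38 against 8.88 ± 2.51 CPM; 0.82), given as mean ± SD with n = 5 per group and each with an edgeR adjusted p of 0.58. In each of the 3, 4 of 5 responders lay above every non-responder. Eomes was also counted among the NK cell markers. Over all 71 listed pathway genes outside the 10, 49 were tested, 38 had a higher mean in responders, 14 were higher and 0 lower at the unadjusted threshold (against the same 48.6% and 4.2% of all features), and the median was 0.14. The count of 14 fell to 7 without RS 11, 8 without NR 2, 8 without NR 7, 9 without RS 9 and 3 with Ptprc as a covariate. Over all features, 452, 552, 426, 497 and 225 were higher in these fits, in that order, against 663 in the fit without these changes. The features tested numbered 15663 to 15767.

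**Figure D4:**
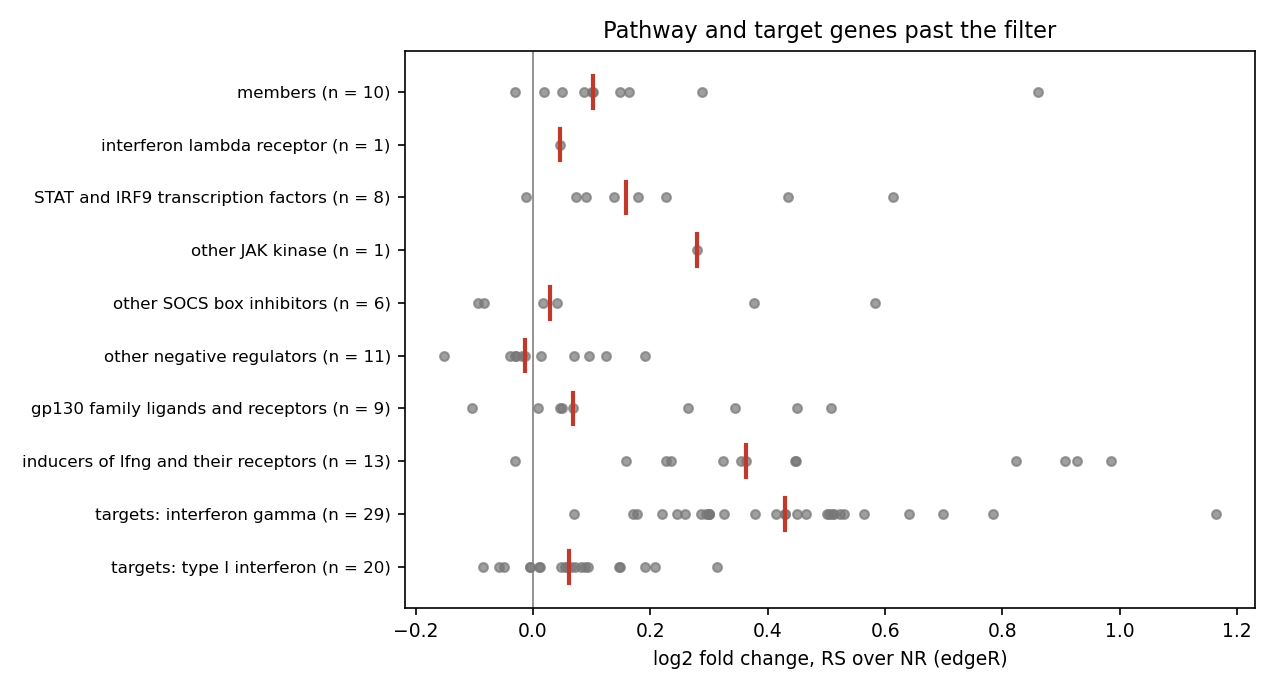
Log2 fold change of responders over non-responders (horizontal axis, edgeR, 5 RS and 5 NR) for the 10 genes and for the tested genes of each pathway and target list, 1 point per gene, with the median of each list as a vertical bar. All 29 interferon gamma targets lie above 0 with a median of 0.43, and the 20 type I interferon targets have a median of 0.06.

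Genes known to be induced by interferon gamma were examined next. The activity of the receptors themselves was not measured. All 29 listed targets had a higher mean in responders (48.6% of all features), and 20 were higher at the unadjusted threshold (background 4.2%). After adjustment 0 passed, and the median log2 fold change was 0.43. Cd274, encoding the inhibitory ligand PD-L1, averaged 86.9 ± 23.3 CPM among the responders and 50.7 ± 15.5 CPM among the non-responders (SD, n = 5 per group), a log2 fold change of 0.78 ± 0.21 (SE). The chemokine genes Cxcl10 and Cxcl11 had log2 fold changes of 0.50 ± 0.14 and 0.51 ± 0.15 (SE), and each of the 3 had an edgeR adjusted p of 0.58. The count of 20 was 12 without NR 2, 11 without NR 7, 8 with Ptprc as a covariate and 12 with the skeletal muscle score as a covariate, and the median was 0.24 in the fit with Ptprc. Over all features, 552, 426, 225 and 771 were higher in these fits, in that order, against 663 in the fit without these changes. The features tested numbered 15692 to 15767. The target score, the mean log2(CPM + 1) of the 29 genes, was 7.41, 7.67, 7.42, 7.87 and 7.49 in RS 5, 9, 10, 11 and 12 and 7.28, 6.71, 7.61, 7.21 and 6.81 in NR 1, 2, 3, 6 and 7. NR 3 lay among the responders, and the other 4 non-responders lay below all 5 of them. The scores averaged 7.57 ± 0.20 among the responders and 7.12 ± 0.37 among the non-responders (SD, n = 5 per group). The lists of targets were chosen with earlier results of these tumors known, and their direction is a description.

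Targets that answer mainly to type I interferon were less uniform. Of 20 such genes, 15 had a higher mean in responders (48.6% of all features), 2 were higher at the unadjusted threshold (4.2% of all features) and 0 lower, and the median log2 fold change was 0.06. The 2 were Xaf1 (0.31) and Bst2 (0.21), followed by Oasl2 (0.19), and without any one of RS 11, NR 2 and NR 7 their number was 0. Over all features, 452, 552 and 426 were higher in those fits, in that order, against 663 with all tumors. The type I target score was highest in RS 5 at 6.09 and lowest in NR 2 at 5.48, and RS 5, the responder with the lowest Ifng, was also below the other responders for Ifngr1, Ifngr2, Ifnar1, Ifnar2, Socs1 and Socs3. The difference between the lists of targets was not tested.

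The other 9 genes and the target score were then related to Ifng across the 10 tumors, on log2(CPM + 1), as 10 relations with permutation tests and Benjamini-Hochberg adjustment. Among these 10, Ifngr1 followed Ifng most closely, with Pearson r = 0.930 (permutation p = 7e-05, adjusted 0.0007) and Spearman rho = 0.879 (permutation p = 0.00168, adjusted 0.0111). Features outside these 10 relations had a higher r with Ifng, such as AB124611 (0.967) and Il15ra (0.959). Without RS 11 and NR 2, the tumors farthest from the median of Ifng, r was 0.917 (exact permutation p = 0.00191, 8 tumors), and on deviations from the group means it was 0.938. Without RS 11 alone, rho was 0.833 and did not pass (adjusted exact permutation p = 0.0538). The range of Ifngr1 was narrow, since its level ran from 74.5 to 83.3 CPM while that of Ifng ran from 0.715 to 3.94 CPM.

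Ifnar2 gave r = 0.891 (permutation p = 0.00069, adjusted 0.00345) and rho = 0.867 (permutation p = 0.00223, adjusted 0.0111), with r = 0.797 without RS 11 and NR 2 (exact permutation p = 0.0194) and 0.858 within groups. Its rho did not pass without RS 11 alone (0.817, adjusted exact permutation p = 0.0538). Ifngr2 gave r = 0.788 (permutation p = 0.00716, adjusted 0.0143) and rho = 0.830 (permutation p = 0.00452, adjusted 0.0151), with r = 0.756 without those tumors (exact permutation p = 0.0307) and 0.757 within groups, and it was lost without RS 11 alone (r = 0.687, adjusted exact permutation p = 0.0672). Ifnar1 was weaker, with r = 0.688 (permutation p = 0.0275, adjusted 0.0459) and rho = 0.709 (permutation p = 0.027, adjusted 0.0449), and r was 0.693 over the 8 tumors left without RS 11 and NR 2 (exact permutation p = 0.0557) and 0.522 within groups (permutation p = 0.12). With a single tumor left out, r no longer passed the adjusted threshold in 8 of 10 cases and rho in 6 of 10. All 4 receptor genes were higher where Ifng was higher over the 10 tumors, and of these relations those of Ifngr1 and Ifnar2 kept an adjusted p below 0.05 for r whichever tumor was left out.

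Socs1 was related to Ifng with r = 0.880 (permutation p = 0.00147, adjusted 0.0049) and rho = 0.733 (permutation p = 0.0208, adjusted 0.0417), and within groups r was 0.831. Over the 8 tumors without RS 11 and NR 2, which also narrows the range of Ifng, it did not pass (r = 0.643, exact permutation p = 0.084). With any single tumor left out, r stayed between 0.797 and 0.953 and kept an adjusted p below 0.05, whereas rho failed without RS 5, RS 9, RS 11, NR 2 or NR 7. The target score behaved alike, with r = 0.852 (permutation p = 0.0024, adjusted 0.006), rho = 0.733 (permutation p = 0.0203, adjusted 0.0417), 0.746 within groups and 0.635 without those tumors (exact permutation p = 0.0917). Jak1 (r = 0.562, rho = 0.576, adjusted permutation p = 0.129 and 0.125), Jak2 (r = 0.37, rho = 0.394, adjusted 0.332 and 0.293), Tyk2 (r = -0.189, rho = -0.285, adjusted 0.595 and 0.428) and Socs3 (r = 0.417, rho = 0.406, adjusted 0.284 and 0.293) did not pass. A single tumor decided this for Socs3, which gave r = 0.846 without NR 2 (adjusted exact permutation p = 0.0129), and for Jak1, which gave r = 0.761 without NR 1 (adjusted exact permutation p = 0.0262).

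**Figure D5:**
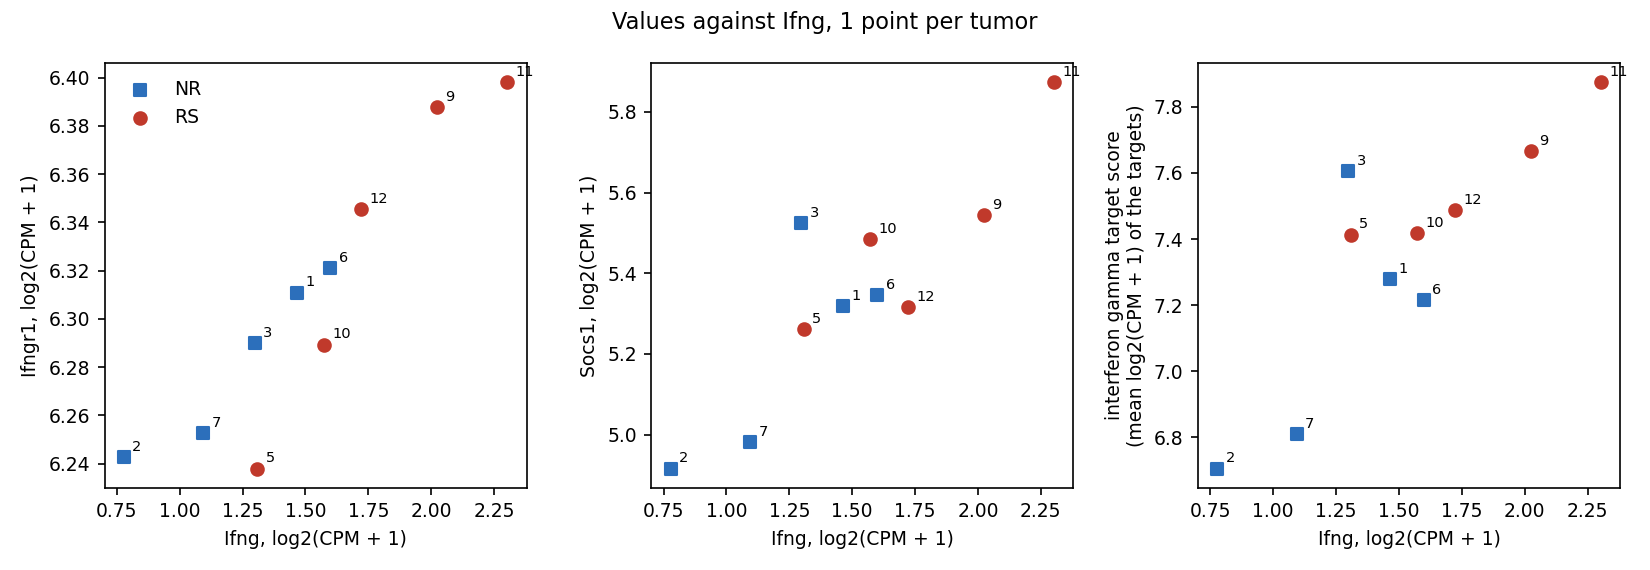
Ifngr1, Socs1 and the interferon gamma target score (vertical axes, log2(CPM + 1), not starting at 0) against Ifng (horizontal axis, log2(CPM + 1)), 1 point per tumor with its number, circles RS and squares NR. RS 11 and NR 2 are the ends of the Ifng range, and r over the 10 tumors is 0.930, 0.880 and 0.852.

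Ifng also moved with leukocyte markers across the tumors, in 5 relations computed after the values had been seen. Its r was 0.929 with the NK score (permutation p = 0.0001, adjusted 0.0005, rho = 0.891), 0.844 without RS 11 and NR 2 (exact permutation p = 0.00714). It was 0.856 with the macrophage and monocyte score (rho = 0.782), 0.834 with the score of 4 general leukocyte genes (rho = 0.685) and 0.821 with the T cell score (rho = 0.733), with adjusted permutation p from 0.00395 to 0.00402 for r and from 0.0275 to 0.043 for rho; without RS 11 and NR 2 these 3 did not pass over the 8 tumors left (r from 0.637 to 0.650, exact permutation p from 0.0794 to 0.0887). With the log2 total count, a measure of depth, it was -0.141 (rho = -0.0424, permutation p = 0.7 and 0.918). The macrophage score differed between the groups by 0.14 (exact permutation p = 0.151) with Lyz2, the lysozyme gene, as its most abundant member at 983.8 CPM, and the general leukocyte score by 0.17 (exact permutation p = 0.159) with Laptm5 at 164 CPM, or by 0.11 without RS 11. How much of the relations of Ifng to the receptor genes and Socs1 goes with the number of leukocytes in each piece was not tested.

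The features most like a member over the 10 tumors were named by the highest Pearson r among 13065 features, as a description, from libraries that share their depth and tissue. For Ifng they were AB124611 (r = 0.967), Tmem50a (0.966) and Il15ra (0.959), the last encoding the receptor chain that presents interleukin-15. For Socs1 they were Unc93b1 (0.980), which escorts endosomal Toll-like receptors, Ubd (0.961), an interferon-induced ubiquitin-like protein, and Psmb10 (0.961), an immunoproteasome subunit. For Socs3 they were Rgs16 (0.958), Amdhd2 (0.947) and Csrnp1 (0.938), and for Jak2 they were Casp2 (0.932), Akap10 (0.926) and Rtn4ip1 (0.922).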

How the data were processed

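RNA of 10 untreated WEHI-164 tumor pieces from separate mice was sequenced as polyA libraries, paired-end, on Illumina instruments. The authors deposited estimated counts per gene, made with Kallisto (submitters' processing notes: kallisto, GRCm38) and summed with tximport, and scaled neither to depth nor to gene length; the annotation release is not given in the sources used here. Of 36009 entries, 9580 had no gene name and were kept, 44 names on more than 1 entry were summed, and counts were rounded to whole numbers.

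Groups were taken from the response labels; tumor numbers are unique across groups. The 15767 features above the CPM minimum that the study applied to its other RNA-seq data (equal to 5.86 to 11.4 counts here) in at least 3 tumors were tested in R 4.3.3 with edgeR 4.0.16 (TMM, quasi-likelihood test, Benjamini-Hochberg over all features, threshold 0.05). On data simulated for this comparison over 15568 genes with 200 changed, the test recovered 193 (100% of 4-fold, 93% of 2-fold) and called 8 others. Changes below 2-fold were not simulated, and the largest difference among the 10 genes was 1.82-fold (Ifng), so recovery at such sizes is not known. The common biological coefficient of variation was 10.4%. Alternatives were DESeq2 1.42.0, limma 3.58.1 (voom), other scalings and filters, covariates for Ptprc or skeletal muscle markers, and each tumor left out.

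Scores were compared by exact permutation over 252 assignments, and relations to Ifng by permutation with 100000 resamples (scipy 1.17.1). CPM per kb used GENCODE exon lengths, and coordinates and overlaps come from the same GRCm38 annotation. Counting intervals cover counting error only. Replicates are separate mice.

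The 10 genes, the pathway, target and marker lists (written by hand from general knowledge) and the rule for named genes were chosen with earlier results of these data known. The rule named the 10 genes, up to 3 genes of smallest unadjusted p per pathway or target list, the most abundant gene of each marker list with markers at 0, and the 3 features most like Ifng, Socs1, Socs3 and Jak2 with mean CPM of at least 1. Trac was not used here. All per-sample columns were mapped to a tumor. One gene that the rule names is not reported here.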

Additional observations from a re-analysis of the deposited data

Results flagged for a closer look

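Each of 24 measures (the 10 genes and 14 list scores) was examined in each group of 5 tumors for a tumor far from the others, by Dixon's criterion (gap over range above 0.71). Of 48 groups, 2 met it, and chance alone gives about 1 in 20, or 2.4. Jak1 in NR 1 was at 7.88 log2(CPM + 1), while the other 4 non-responders were between 7.75 and 7.79. The type I interferon target score in NR 2 was 5.48, while the other 4 non-responders were between 5.73 and 5.84.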

How the results depend on the processing

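Of the 10 genes, Ifng had the fewest counts, at 20 to 121 per tumor. The type I and III ligands, with at most 4 counts, did not pass the filter. The 10 log2 fold changes kept their direction under the other scalings, tests and filters, and none passed after adjustment in any fit. DESeq2 called 1 feature. With Ptprc as a covariate, 463 features and 0 of the 10 genes passed before adjustment, as did 3 pathway genes, 8 interferon gamma targets (median 0.24) and 0 type I targets, the median of the 10 genes was 0.02, and Ifngr2 (-0.0063), Jak1 (-0.0044) and Socs3 (-0.0013) changed sign. The count among the 10 genes was 2 (Ifng and Socs1) by library size alone, DESeq2, limma-voom or no filter. In these fits 1274, 1245, 1331 and 1686 features passed before adjustment, in that order, of 24858 without the filter and 15767 otherwise. With the skeletal muscle score as a covariate, 1502 features and 3 of the 10 genes passed, as did 12 interferon gamma and 0 type I targets. The causes were not tested.

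Leaving out each tumor in turn gave 0 to 9 features called, 839 to 2139 before adjustment, 0 to 5 of the 10 genes, 7 to 19 pathway genes, 11 to 25 interferon gamma targets and 0 to 4 type I targets. The median of the type I targets ran from -0.01 to 0.11, and the log2 fold changes from 0.63 to 1.03 for Ifng, 0.18 to 0.37 for Socs1, 0.07 to 0.17 for Ifngr2, 0.11 to 0.22 for Ifnar2, 0.02 to 0.17 for Socs3, 0.04 to 0.08 for Ifngr1, 0.07 to 0.12 for Ifnar1, 0.10 to 0.24 for Jak2, 0.0077 to 0.0411 for Jak1 and -0.0523 to 0.0046 for Tyk2. Pearson r with Ifng ran from 0.897 to 0.964 for Ifngr1, 0.687 to 0.869 for Ifngr2, 0.609 to 0.750 for Ifnar1, 0.818 to 0.911 for Ifnar2, 0.427 to 0.761 for Jak1, 0.184 to 0.846 for Socs3, 0.797 to 0.953 for Socs1 and 0.769 to 0.939 for the target score. Spearman rho ran from 0.833 to 0.950 for Ifngr1, 0.767 to 0.867 for Ifngr2, 0.617 to 0.783 for Ifnar1, 0.817 to 0.917 for Ifnar2, 0.417 to 0.733 for Jak1, 0.183 to 0.783 for Socs3 and 0.633 to 0.883 for both Socs1 and the target score. Scores differed by 0.138 to 0.404 for T cells, 0.115 to 0.235 for leukocytes, -0.125 to -0.0578 for fibroblasts and fibrosarcoma, -0.350 to -0.112 for adipocytes, -0.0214 to 0.107 for dendritic cells, -0.0598 to 0.0296 for B cells, 0.344 to 0.569 for interferon gamma targets and -0.0186 to 0.107 for type I targets. They differed by 0.566 to 0.983 for NK cells, 0.314 to 0.558 for neutrophils and 0.0963 to 0.177 for macrophages and monocytes. The ranges were -0.217 to -0.125 for endothelium, -0.638 to -0.315 for skeletal muscle and 0.222 to 0.369 for keratinocytes. No paired analysis was possible because the tumor numbers of the groups do not overlap.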

Other observations

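Other tissues in the pieces were measured by the remaining marker lists, each scored as a mean log2(CPM + 1) over its testable markers and given as responders minus non-responders. The score of 6 endothelial markers was 4.21 ± 0.135 against 4.39 ± 0.0921 (SD, n = 5 per group), which differed by -0.18 (exact permutation p = 0.0397, 0.228 after adjustment over 12 lists). Of the 6, 5 had a lower mean in responders, and Pecam1, the most abundant at 70.4 CPM, had a log2 fold change of 0.09. The fibroblast and fibrosarcoma score, led by Vim, had a difference of -0.09 (exact permutation p = 0.0952, adjusted 0.228), or -0.06 without NR 6, and the neutrophil score, led by Csf3r at 20.2 CPM, of 0.42 (exact permutation p = 0.0952, adjusted 0.228), which was 0.70 with a pseudocount of 0.1. Skeletal muscle markers, led by Acta1 at 57.4 CPM, had a difference of -0.44 (exact permutation p = 0.175, adjusted 0.262) and adipocyte markers, led by Fabp4 at 21.4 CPM, of -0.23 (exact permutation p = 0.341, adjusted 0.409). The adipocyte value was -0.45 with a pseudocount of 0.1, -0.35 without RS 10, -0.15 without RS 11 and -0.11 without NR 6. The score of 2 keratinocyte markers, led by Krt10 at 3.09 CPM with Krt1 at 0 in every tumor, had a difference of 0.28 (exact permutation p = 0.0476, adjusted 0.228). It came from Trp63, a basal epithelial transcription factor named here after its value was seen (log2 fold change 0.79, edgeR adjusted p = 0.58), while Krt10 had 0.01, and Krt5, Krt14, Lor and Dsg3 had 7 counts or fewer in every tumor. Dendritic cell markers, led by Ccr7 at 5.12 CPM, and B cell markers, led by Cd79b at 0.597 CPM, had differences of 0.03 and -0.01 (exact permutation p = 0.778 and 0.905).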
